A study of Mus musculus with 9 samples.

Results

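Phosphoinositide 3-kinase (PI3K) subunits, an adaptor that recruits them and a phosphatase that removes their product are described here across 3 treatments of cultured mouse macrophages. The 9 genes were taken by name. They are the class I catalytic subunits Pik3ca, Pik3cb, Pik3cd and Pik3cg, the regulatory subunits Pik3r1, Pik3r2 and Pik3r5, the adaptor Pik3ap1 and the lipid phosphatase Inpp5d. They are 9 of the 53342 genes in the count table, and all 9 were among the 12511 genes with enough counts to be tested. The cells were macrophages grown from the bone marrow of wild-type C57BL/6J mice of both sexes, 8 to 12 weeks old, with marrow of different animals kept apart. All 9 libraries came from cells exposed to spinal cord homogenate, added at 1% weight per volume for 24 h, and no library from cells without homogenate was analysed here. The 3 groups differed in what was given for 2 h before the homogenate and stayed on with it. These were Torin-2, which competes with ATP for the active site of mTOR, rapamycin, which blocks mTORC1 from outside that site, and vehicle, with 3 libraries in each group. Doses of the compounds are not in the sources used here, and the homogenate was a lot made from pooled cords freed of meninges.

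Class I PI3Ks phosphorylate a membrane lipid to make PIP3, the signal that brings kinases such as AKT to the plasma membrane. The catalytic subunits p110α (Pik3ca), p110β (Pik3cb) and p110δ (Pik3cd) pair with p85-type regulatory subunits and are recruited by receptor tyrosine kinases, adaptors and immune receptors. The catalytic subunit p110γ (Pik3cg) pairs with p101 (Pik3r5) or p84 (Pik3r6) and is switched on by G protein βγ subunits and Ras. The lipid signal is ended by phosphatases, among them those of the SHIP family, of which SHIP1 (Inpp5d) is the form of blood cells. The isoforms p110δ and p110γ are enriched in leukocytes, and mTORC1 lies downstream of PI3K and AKT and feeds back on the inputs of the pathway.

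The sequence upstream of the annotated start is shown for 3 of the genes on which the results turn. They are Pik3cg and Pik3r5, whose transcripts rose most with both compounds, and Inpp5d, which was lower with Torin-2. The 250 bases before a RefSeq start (GRCm38.p6) are given in the direction of transcription. Capitals mark a match to the ETS motif GAGGAA. The Pik3cg window is the one before the more upstream of 2 annotated starts, at chr12:32208660-32208909 on the minus strand. The Pik3r5 window is chr11:68431875-68432124 and the Inpp5d window is chr1:87620062-87620311, both on the plus strand.
Pik3cg: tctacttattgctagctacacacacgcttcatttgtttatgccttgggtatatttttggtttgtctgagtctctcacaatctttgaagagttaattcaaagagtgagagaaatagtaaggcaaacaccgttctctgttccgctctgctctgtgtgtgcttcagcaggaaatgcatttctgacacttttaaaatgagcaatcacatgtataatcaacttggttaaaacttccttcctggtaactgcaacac
Pik3r5: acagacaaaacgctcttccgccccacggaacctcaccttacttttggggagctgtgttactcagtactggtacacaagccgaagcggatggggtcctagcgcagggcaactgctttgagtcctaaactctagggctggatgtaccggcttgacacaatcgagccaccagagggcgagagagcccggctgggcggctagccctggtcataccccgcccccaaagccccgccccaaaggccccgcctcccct
Inpp5d: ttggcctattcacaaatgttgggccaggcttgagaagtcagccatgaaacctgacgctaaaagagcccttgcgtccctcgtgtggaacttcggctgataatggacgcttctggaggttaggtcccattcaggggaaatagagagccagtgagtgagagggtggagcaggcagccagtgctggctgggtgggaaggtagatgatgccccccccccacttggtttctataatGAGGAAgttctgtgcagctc
The windows searched ran from 250 bases before to 50 bases after the start, and the 9 genes had 13 of them. They were searched on both strands. The forkhead motif TGTTTAC stood in 1 of the 13, that of the second Pik3cg start, at 92 to 86 bases before it on the opposite strand. It occurred in 3.65% of 32851 such mouse windows. The ETS motif, the kind of site that the macrophage factor PU.1 can bind, stood in 4 of the 13 windows, those of Pik3cg (both starts), Pik3ap1 and Inpp5d. The 2 Pik3cg windows overlap and hold the same 2 matches, so the 4 windows stand for 3 genes. The match shown for Inpp5d lies 20 to 15 bases before its start, and those of the Pik3cg window shown lie beyond the start and so outside the bases printed. The motif occurred in 28.3% of all windows. An E-box, CACGTG, was found in the Pik3ap1 window alone, against 7.15% of all windows. No match to any of these motifs lay in the Pik3r5 window, which says only that these letters are not in it.

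Libraries held 16116666 to 24044329 counts, and each of the 9 genes had at least 34.3 CPM (counts scaled to library size) in every library. All 10 macrophage markers looked for, such as Adgre1 and Csf1r, were tested. Their summed level ran from 15252 to 17135 CPM with Torin-2, from 20012 to 21791 CPM with rapamycin and from 12692 to 17311 CPM with vehicle. Most of that sum was Lyz2, and the markers did not move one way. In all Torin-2 libraries 3 of the 10 lay above every vehicle library and 4 below, and in all rapamycin libraries 6 lay above and 3 below. C1qa ran from 48.2 to 60.2 CPM with Torin-2, from 116 to 210 CPM with rapamycin and from 314 to 367 CPM with vehicle. Fcgr1 ran from 31.2 to 41.5 CPM with Torin-2, from 73.1 to 79.1 CPM with rapamycin and from 91.0 to 108 CPM with vehicle, and Adgre1 from 660 to 709 CPM with Torin-2, from 641 to 784 CPM with rapamycin and from 869.9 to 993 CPM with vehicle. Of 8 oligodendrocyte markers, 6 were tested, none stood at 0 in all libraries, and their sum was 366 to 424 CPM with Torin-2, 693 to 847 CPM with rapamycin and 481 to 614 CPM with vehicle. Fibroblast markers summed to at most 78.2 CPM, and their lowest value in each group was in replicate 3. Astrocyte markers summed to at most 35.3 CPM, neuron markers to 20.98 CPM and neutrophil markers to 4.89 CPM. B cell markers, given here because Pik3ap1 is the B cell adaptor BCAP, reached at most 0.825 CPM, with Pax5 at 0 throughout. T and NK cell markers reached at most 1.01 CPM and dendritic cell markers 0.451 CPM, and all 4 mast cell markers stood at 0. The part of these marker differences and other cell types in the results below was not tested, and in RNA from a whole culture fewer cells of a type and less RNA per cell cannot be told apart.

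Each treatment was set against vehicle to see which of these transcripts differed when mTOR was inhibited during exposure to the homogenate. With Torin-2, Pik3ca, Pik3cd, Pik3cg and Pik3r5 rose, Inpp5d fell, and the other 4 genes did not pass. That is 5 of 9, 4 higher and 1 lower, where 65.4% of all genes tested were called, 32.5% higher and 32.9% lower (edgeR's quasi-likelihood test, Benjamini-Hochberg adjusted p under 0.05). For so few genes this share is near that of all genes, and no set test was made. With rapamycin 8 of the 9 genes were called higher and none lower, where 50.8% of all genes tested were called, 24.6% higher and 26.2% lower. The exception was Inpp5d. At an unadjusted p under 0.05 edgeR also gave 8 higher and none lower, and DESeq2 called 7 of the 9 after adjustment, without Pik3r2. The median log2 fold change of the 9 genes was 0.20 with Torin-2 and 0.33 with rapamycin, beside medians of -0.01 and 0.00 over all genes tested. The median absolute log2 change over all genes was 0.52 with Torin-2, which Pik3cg, Pik3r5 and Inpp5d exceeded, and 0.35 with rapamycin, which Pik3cb, Pik3cd, Pik3cg and Pik3r5 exceeded. A change of at least 2-fold was called for 1 of the 9 genes with Torin-2, Pik3r5, and for none with rapamycin, against 20.7% of all genes tested with Torin-2 and 8.60% with rapamycin. Libraries did not overlap with vehicle for 6 of the 9 genes with Torin-2 and 8 with rapamycin, which held for 70.2% of all genes with Torin-2 and 57.5% with rapamycin. Both comparisons use the same 3 vehicle libraries.

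**Figure D1:**
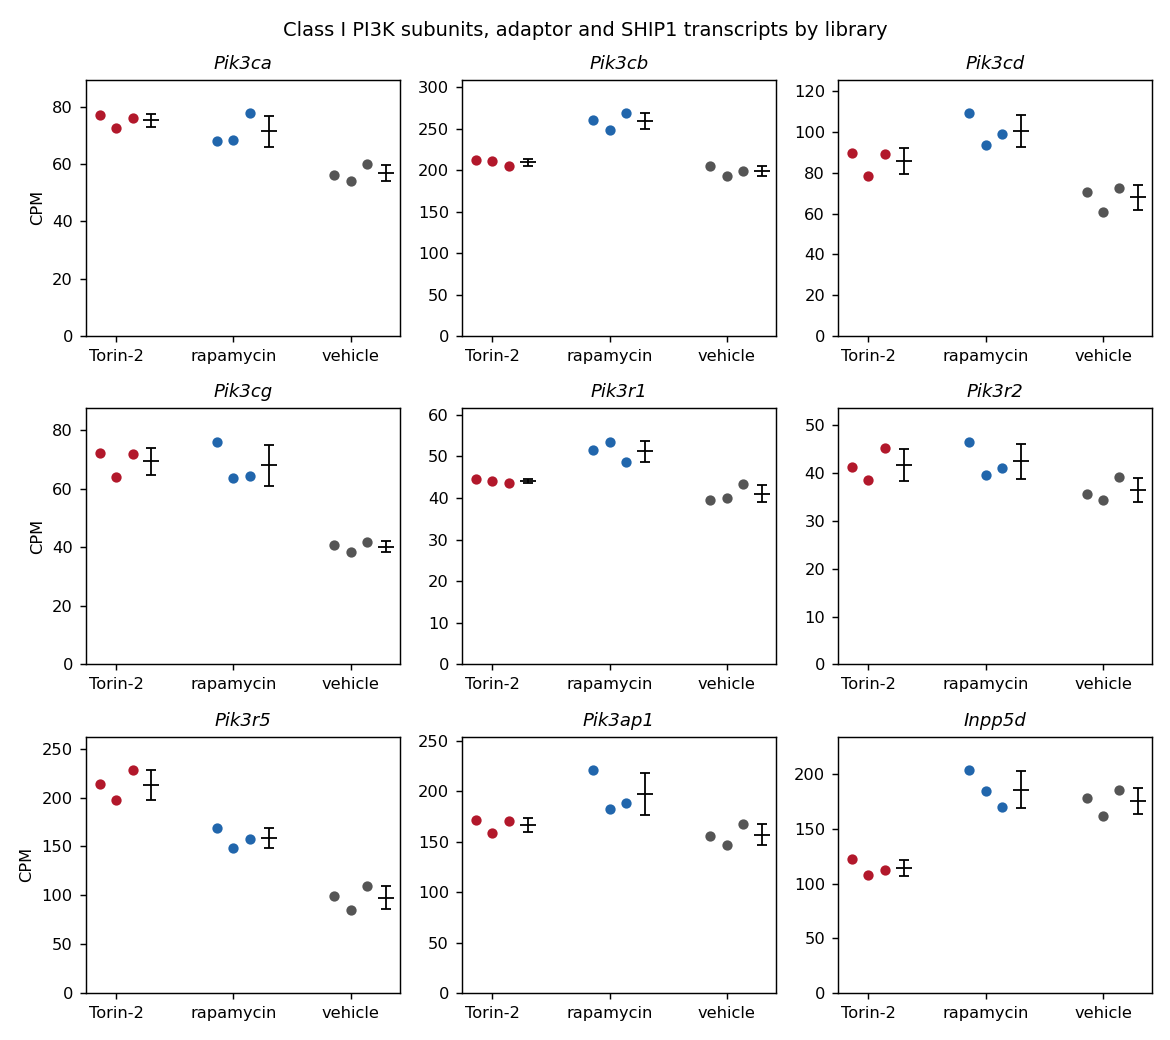
CPM of each of the 9 genes in the 9 libraries, by treatment, with a linear axis from 0. Points are libraries in the order of replicates 1 to 3, and the bar beside each group is the mean ± SD (n = 3). Pik3r5 steps down across Torin-2, rapamycin and vehicle without overlap, whereas Inpp5d is lower with Torin-2 (108 to 123) than in the other groups (162 to 204).

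The genes of the p110γ heterodimer showed the largest rises. Pik3r5 (ENSMUSG00000020901, chromosome 11 from 68432121 to 68497849 of GRCm38, as are all positions below) encodes p101, the subunit that couples p110γ to G protein βγ. It stood at 214, 197 and 228 CPM with Torin-2, at 169, 149 and 158 CPM with rapamycin and at 99.1, 84.9 and 109 CPM with vehicle. No 2 of the 3 groups overlapped, and the order was Torin-2 above rapamycin above vehicle. Relative to vehicle Pik3r5 was higher by 1.12 ± 0.090 (log2 fold change ± SE, adjusted p = 4.57e-07) with Torin-2 and by 0.70 ± 0.090 (adjusted p = 6.12e-05) with rapamycin, by edgeR's quasi-likelihood test with Benjamini-Hochberg adjustment. The Torin-2 level was 2.18 times that of vehicle, with a 95% interval of 0.93 to 1.32 on the log2 scale. This change was larger in size than that of 82.0% of the genes tested.

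Pik3cg (ENSMUSG00000020573, chromosome 12 from 32173473 to 32208659, minus strand) encodes p110γ itself. Its values were 72.2, 64.1 and 71.9 CPM with Torin-2, 76.1, 63.8 and 64.2 CPM with rapamycin, and 40.8, 38.3 and 41.7 CPM with vehicle. Every treated library lay above every vehicle library, and the libraries of both compounds overlapped. The log2 fold change was 0.79 ± 0.080 with Torin-2 (adjusted p = 3.52e-06) and 0.75 ± 0.080 with rapamycin (adjusted p = 1.52e-05, edgeR quasi-likelihood, Benjamini-Hochberg). The rise with rapamycin was larger in size than that of 82.3% of the genes tested. Both genes rose in each replicate number, by 1.07 to 1.22 for Pik3r5 and 0.74 to 0.83 for Pik3cg (log2 ratio of same-numbered libraries, Torin-2 over vehicle). With rapamycin these ratios ran from 0.53 to 0.81 for Pik3r5 and from 0.62 to 0.90 for Pik3cg, lowest in replicate 3 for both.

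The other partner of p110γ was not called higher with either compound. Pik3r6, which encodes p84, stood at 4.12, 3.83 and 3.49 CPM with Torin-2, at 1.74, 2.37 and 1.85 CPM with rapamycin and at 3.81, 3.30 and 3.56 CPM with vehicle. It fell with rapamycin, by 0.83 ± 0.19 on the log2 scale (adjusted p = 0.00331), and did not pass with Torin-2 (0.10 ± 0.18, adjusted p = 0.654, edgeR quasi-likelihood, Benjamini-Hochberg).

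Among the p85-bound catalytic subunits, Pik3ca and Pik3cd rose with both compounds. Pik3ca (ENSMUSG00000027665, chromosome 3 from 32397671 to 32468486), the widely expressed isoform p110α, stood at 77.1, 72.8 and 76.0 CPM with Torin-2, at 68.2, 68.3 and 77.8 CPM with rapamycin and at 56.3, 54.3 and 60.0 CPM with vehicle. All treated libraries exceeded all vehicle libraries. The log2 fold change was 0.40 ± 0.067 with Torin-2 (adjusted p = 0.00019) and 0.33 ± 0.067 with rapamycin (adjusted p = 0.00151), both from edgeR's quasi-likelihood test with Benjamini-Hochberg adjustment. Pik3cd (ENSMUSG00000039936, chromosome 4 from 149649168 to 149702571, minus strand) encodes the leukocyte isoform p110δ. It had 89.7, 78.4 and 89.1 CPM with Torin-2, 109, 93.7 and 99.0 CPM with rapamycin, and 70.4, 61.0 and 72.6 CPM with vehicle. The 3 groups did not overlap, and here rapamycin was the highest. Its log2 fold change was 0.33 ± 0.084 with Torin-2 (adjusted p = 0.00385) and 0.56 ± 0.084 with rapamycin (adjusted p = 0.000174, edgeR quasi-likelihood, Benjamini-Hochberg).

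Pik3cb behaved differently between the compounds. This gene (ENSMUSG00000032462, chromosome 9 from 99036654 to 99140621, minus strand) encodes p110β, which both G protein-coupled receptors and p85-binding receptors can engage. Libraries held 213, 212 and 205 CPM with Torin-2, 261, 249 and 269 CPM with rapamycin, and 205, 193 and 199 CPM with vehicle. The rapamycin libraries stood above all others, while Torin-2 and vehicle overlapped. The rise with rapamycin was 0.38 ± 0.050 (log2, adjusted p = 7.48e-05), and the Torin-2 difference was 0.07 with a 95% interval of -0.04 to 0.18 (adjusted p = 0.225, edgeR quasi-likelihood, Benjamini-Hochberg).

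Both p85 genes were called higher with rapamycin and did not pass with Torin-2. Pik3r1 (ENSMUSG00000041417, chromosome 13 from 101680563 to 101768217, minus strand) encodes p85α and shorter forms, which stabilise and restrain the catalytic subunits. It stood at 44.5, 44.2 and 43.6 CPM with Torin-2, at 51.6, 53.6 and 48.6 CPM with rapamycin and at 39.6, 40.0 and 43.3 CPM with vehicle. No 2 groups overlapped, but the Torin-2 libraries exceeded the highest vehicle library only narrowly. The log2 fold change was 0.32 ± 0.062 with rapamycin (adjusted p = 0.00106), whereas with Torin-2 it was 0.11 (95% interval -0.03 to 0.24) and did not pass (adjusted p = 0.154, edgeR quasi-likelihood, Benjamini-Hochberg).

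Pik3r2 (ENSMUSG00000031834, chromosome 8 from 70768176 to 70776713, minus strand) encodes p85β. Its libraries held 41.3, 38.5 and 45.3 CPM with Torin-2, 46.6, 39.7 and 41.1 CPM with rapamycin, and 35.7, 34.3 and 39.2 CPM with vehicle. Torin-2 and vehicle overlapped, and the lowest rapamycin library lay just above the highest vehicle library. The call was the least secure of the 9 genes. With rapamycin the log2 fold change of 0.22 ± 0.086 passed in edgeR's quasi-likelihood fit at a Benjamini-Hochberg adjusted p of 0.049, but not by DESeq2 (0.0503), under scaling by library totals alone (0.229), or without rapamycin replicate 1 (0.187) or 3 (0.0622), Torin-2 replicate 1 (0.0671) or 2 (0.0543), or vehicle replicate 1 (0.132) or 2 (0.147). With Torin-2 the log2 fold change was 0.20 ± 0.085 and did not pass (adjusted p = 0.0589). It passed with the replicate number as a block, at an adjusted p of 0.0211 (edgeR quasi-likelihood, Benjamini-Hochberg), without a filter on low counts (0.046), and without rapamycin replicate 1 (0.0476), Torin-2 replicate 2 (0.0417) or vehicle replicate 3 (0.0314), while the ratio of same-numbered libraries was 0.17 to 0.21 on the log2 scale in all 3 pairs. Pik3r2 shares 45 exon bases with the transcript 6330537M06Rik of the other strand, which had at most 2.25 CPM, and whether strand was used in counting is not known. None of the other 8 genes has exons that overlap those of another gene.

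**Figure D2:**
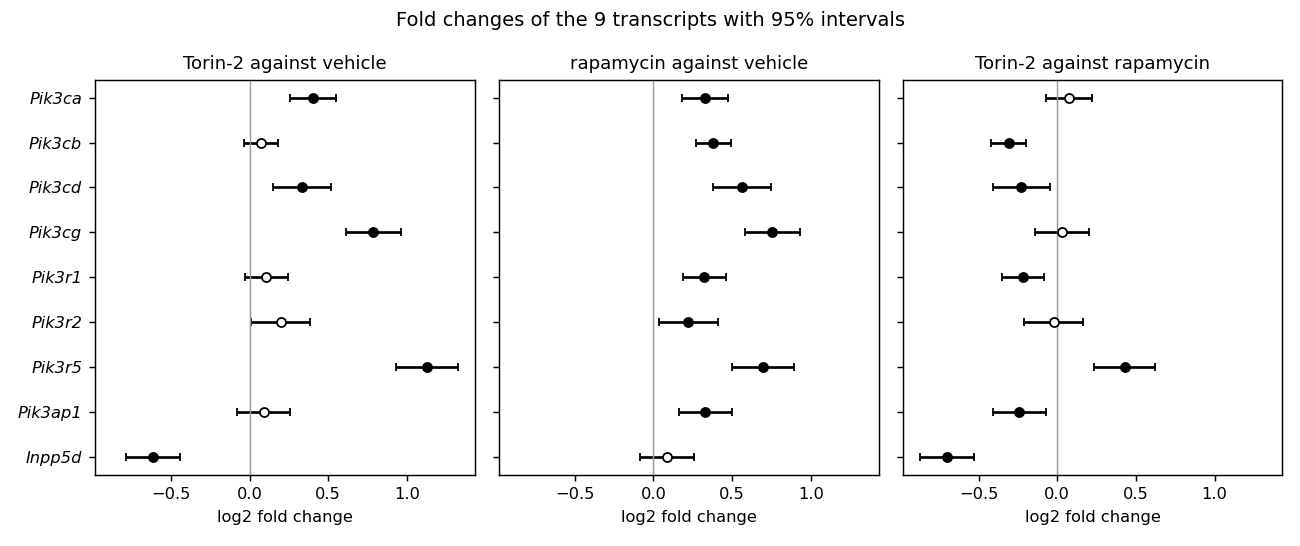
Log2 fold change of each gene in the 3 comparisons, with 95% intervals from edgeR's quasi-likelihood fit. Filled points passed at a Benjamini-Hochberg adjusted p under 0.05 and open points did not. Pik3r5 lies farthest to the right with Torin-2 against vehicle (1.12), and Inpp5d is the one gene to the left of 0 there (-0.62).

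The adaptor and the phosphatase differed in what each compound did. Pik3ap1 (ENSMUSG00000025017, chromosome 19 from 41272377 to 41385102, minus strand) encodes BCAP, which carries tyrosine motifs that bind p85 and which also links PI3K to Toll-like receptors in macrophages. It had 172, 159 and 170.3 CPM with Torin-2, 221, 183 and 188 CPM with rapamycin, and 156, 147 and 168 CPM with vehicle. Rapamycin libraries lay above all others and Torin-2 overlapped vehicle. The rise with rapamycin was 0.33 ± 0.077 on the log2 scale (adjusted p = 0.00375), and the difference with Torin-2 was 0.09 (95% interval -0.08 to 0.26, adjusted p = 0.329, edgeR quasi-likelihood, Benjamini-Hochberg).

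Inpp5d (ENSMUSG00000026288, chromosome 1 from 87620312 to 87720507) encodes SHIP1, which removes the 5′ phosphate of PIP3 and restrains PI3K output in myeloid cells. Its values were 123, 108 and 112 CPM with Torin-2, 204, 184 and 169.9 CPM with rapamycin, and 179, 162 and 185 CPM with vehicle. Every Torin-2 library lay below every library of the other groups, and rapamycin overlapped vehicle. Relative to vehicle Inpp5d fell by 0.62 ± 0.079 with Torin-2 on the log2 scale (adjusted p = 2.38e-05), to 0.65 times the vehicle level with a 95% interval of 0.58 to 0.73. The rapamycin difference was 0.08, with a 95% interval of -0.09 to 0.26 (adjusted p = 0.39, edgeR quasi-likelihood, Benjamini-Hochberg). In same-numbered libraries rapamycin exceeded vehicle by 0.19 in replicates 1 and 2 and was lower by 0.13 in replicate 3 on the log2 scale.

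Torin-2 was then set directly against rapamycin, a comparison that does not use the vehicle libraries for its difference. Pik3r5 was higher with Torin-2, and Pik3cb, Pik3cd, Pik3r1, Pik3ap1 and Inpp5d were lower. These 6 calls, 1 higher and 5 lower of 9, stand beside 48.2% of all genes called in this comparison, 24.2% higher and 24.1% lower. None of the 6 reached 2-fold, against 9.58% of all genes tested. The 6 genes are those whose libraries did not overlap between the compounds, which held for 57.2% of all genes tested. Inpp5d differed most, by -0.70 ± 0.079 (log2 fold change, Torin-2 over rapamycin, ± SE, adjusted p = 2.1e-05), a size above that of 78.2% of the genes tested. Pik3r5 differed by 0.43 ± 0.089 (adjusted p = 0.00183) and Pik3cb by -0.31 ± 0.050 (adjusted p = 0.000345, edgeR quasi-likelihood, Benjamini-Hochberg). The remaining 3 calls were smaller, at -0.24 for Pik3ap1 (adjusted p = 0.0222), -0.23 for Pik3cd (adjusted p = 0.039) and -0.22 for Pik3r1 (adjusted p = 0.0123, the same test). These 3 were not called under scaling by library totals alone (adjusted p of 0.0823, 0.127 and 0.0695, the same test), which left 3 of 9 genes called. The call of Pik3ap1 was also lost without rapamycin replicate 1 (0.0885) or Torin-2 replicate 2 (0.0823), and that of Pik3r1 without rapamycin replicate 2 (0.0532) or without a filter (0.0569). Pik3cd lost its call without rapamycin replicate 1 (0.143) or 3 (0.0573), without Torin-2 replicate 1 (0.0521), 2 (0.146) or 3 (0.0553), or without vehicle replicate 1 (0.0527). For Pik3ca, Pik3cg and Pik3r2 the 95% intervals of the difference were -0.07 to 0.22, -0.14 to 0.20 and -0.21 to 0.16 on the log2 scale, so differences within these bounds are not shown to be absent.

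Levels of different genes were compared after division by the length of their exons, as CPM per kilobase. With vehicle the order was Pik3ap1 (28.2 ± 1.87), Pik3cb (27.7 ± 0.850), Inpp5d (23.1 ± 1.59), Pik3r5 (17.6 ± 2.19), Pik3cd (10.9 ± 0.988), Pik3r2 (8.71 ± 0.603), Pik3ca (6.26 ± 0.319), Pik3cg (4.78 ± 0.209) and Pik3r1 (4.07 ± 0.203 CPM per kilobase, SD, n = 3). The libraries of Pik3ap1 and Pik3cb overlapped and those of all other neighbours in this order did not. With Torin-2 Pik3r5 came first at 38.4 ± 2.79 CPM per kilobase, above Pik3ap1 (30.0 ± 1.26) and Pik3cb (29.2 ± 0.589), whose libraries overlapped. Inpp5d followed at 15.0 ± 1.00 CPM per kilobase, with libraries that overlapped those of Pik3cd (13.7 ± 1.02). With rapamycin Pik3cb (36.1 ± 1.39) and Pik3ap1 (35.4 ± 3.71) overlapped at the top, ahead of Pik3r5 (28.6 ± 1.83) and Inpp5d (24.5 ± 2.24 CPM per kilobase), whose libraries overlapped.

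Within the catalytic subunits p110β transcripts were the most abundant in all groups and p110γ gained the largest share. Of the summed CPM per kilobase of the 4 catalytic genes, Pik3cb made up 49.1% ± 1.77 with Torin-2, 53.0% ± 1.21 with rapamycin and 55.9% ± 1.28 with vehicle (SD, n = 3). The share of Pik3cg was 13.9% ± 0.580 with Torin-2, 11.8% ± 0.939 with rapamycin and 9.63% ± 0.107 with vehicle, and libraries of the 3 groups did not overlap. Pik3cd held 23.1% with Torin-2, 23.6% with rapamycin and 21.9% with vehicle. For Pik3ca the share was 13.9% with Torin-2, 11.5% with rapamycin and 12.6% with vehicle. The sum itself was 59.4 ± 1.69 CPM per kilobase with Torin-2, 68.1 ± 3.01 with rapamycin and 49.6 ± 2.16 with vehicle. Among the 3 regulatory genes, Pik3r5 made up 72.8% ± 0.374 of the summed CPM per kilobase with Torin-2, 65.2% ± 0.775 with rapamycin and 57.8% ± 1.89 with vehicle. Per kilobase Pik3r2 stood above Pik3r1 in every library, with a ratio of Pik3r1 to Pik3r2 of 0.440 with Torin-2, 0.503 with rapamycin and 0.467 with vehicle. Per kilobase there were 4.66 ± 0.167 Pik3r5 transcripts for each Pik3cg transcript with Torin-2, 3.55 ± 0.178 with rapamycin and 3.68 ± 0.304 with vehicle. These shares are descriptions without a test, and they rest on exon lengths merged over all annotated transcripts of a gene.

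**Figure D3:**
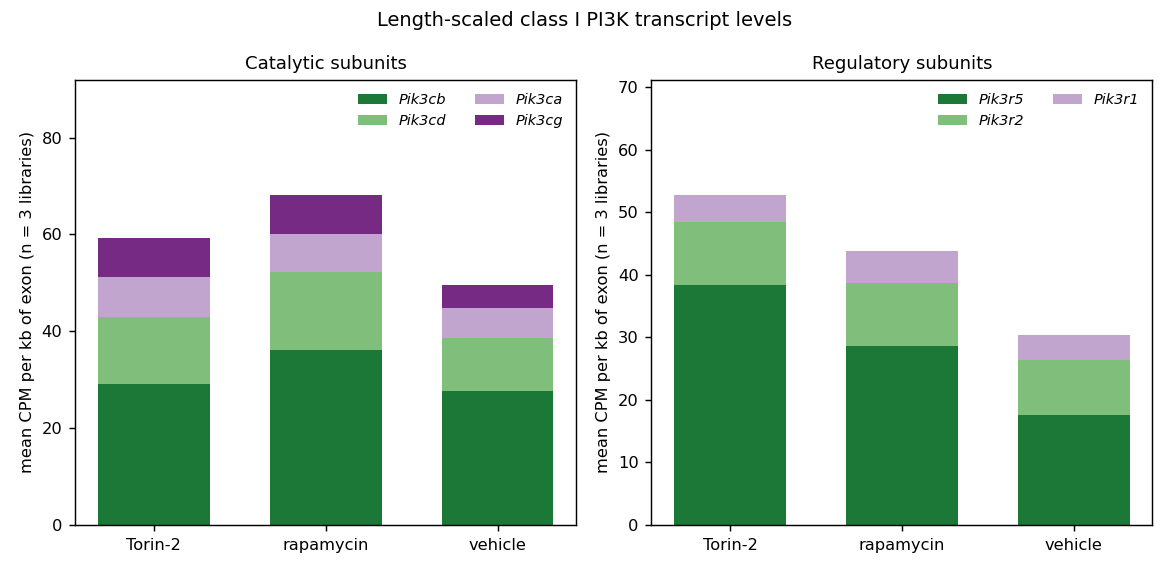
Mean CPM per kilobase of exon (n = 3 libraries) of the 4 catalytic genes (left) and the 3 regulatory genes (right), stacked by treatment on axes from 0. The catalytic stack is tallest with rapamycin (68.1) and the regulatory stack with Torin-2 (52.7), where most of it is Pik3r5.

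Other phosphoinositide phosphatases were called in both directions, more of them higher than lower. Inppl1, which encodes the widely expressed paralogue SHIP2, was higher by 0.18 with Torin-2 (adjusted p = 0.0215) and by 0.32 with rapamycin (adjusted p = 0.000889, edgeR quasi-likelihood, Benjamini-Hochberg), where Inpp5d fell or did not pass. The Torin-2 call of Inppl1 was lost without Torin-2 replicate 1 (0.0542) or 3 (0.0701) or vehicle replicate 1 (0.0691) or 2 (0.0933).

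Of 12 other phosphoinositide phosphatases, 7 rose and 4 fell with Torin-2, and 7 rose and 4 fell with rapamycin. For some of the 12, such as Ocrl, PIP3 is not the main substrate. Median log2 fold changes of the 12 were 0.24 with Torin-2 and 0.33 with rapamycin. Called higher were thus 58.3% of them with each compound and called lower 33.3%, where over all genes tested the shares were 32.5% higher and 32.9% lower with Torin-2, and 24.6% higher and 26.2% lower with rapamycin. Counts of the lists that follow stand beside the same shares over all genes. Inpp5k, a 5-phosphatase also called SKIP, averaged 67.7 ± 3.17 CPM with Torin-2, 49.8 ± 3.32 CPM with rapamycin and 28.4 ± 1.19 CPM with vehicle (SD, n = 3), and rose by 1.25 and 0.81 on the log2 scale with the 2 compounds (adjusted p = 2.16e-08 and 3.23e-06, edgeR quasi-likelihood, Benjamini-Hochberg). Inpp5j, another 5-phosphatase, fell by 2.29 with Torin-2 and by 1.87 with rapamycin, though it had only 1.26 ± 0.296 CPM with Torin-2, 1.71 ± 0.222 CPM with rapamycin and 6.25 ± 1.03 CPM with vehicle. Inpp4b, a 4-phosphatase that acts on the product of SHIP1, fell by 1.13 with Torin-2 and 1.69 with rapamycin. It too had few counts, with 2.45 ± 0.570 CPM with Torin-2, 1.68 ± 0.794 CPM with rapamycin and 5.33 ± 1.41 CPM with vehicle. Ocrl, the 5-phosphatase mutated in Lowe syndrome, fell by 0.63 with Torin-2 and 0.17 with rapamycin.

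**Figure D4:**
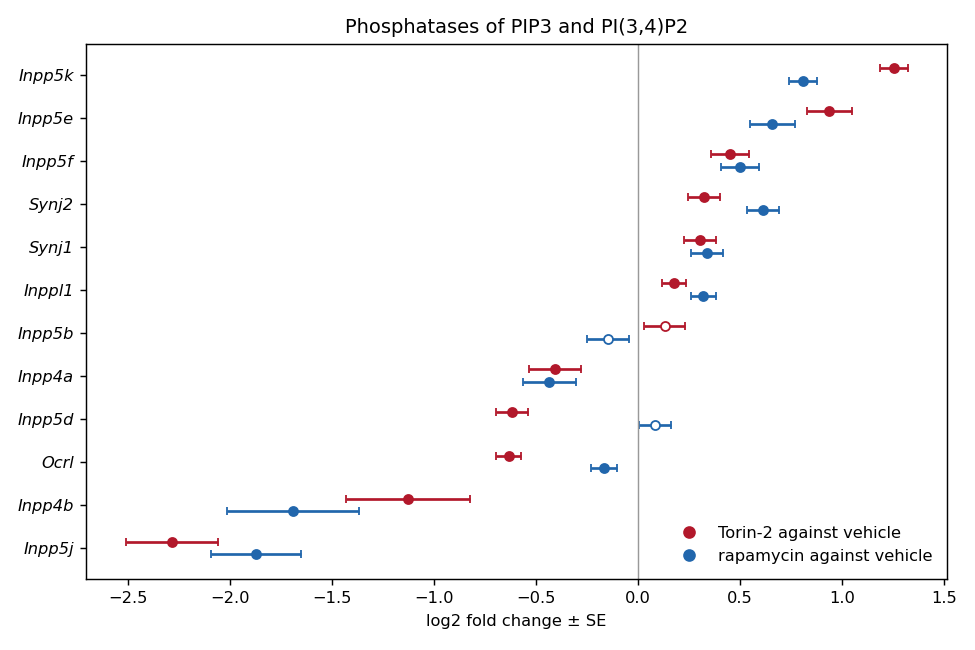
Log2 fold change ± SE of Inpp5d and 11 other phosphatases against vehicle, with Torin-2 above rapamycin for each gene, ordered by the Torin-2 value. Filled points passed at an adjusted p under 0.05. Inpp5d is below 0 with Torin-2 (-0.62) and near 0 with rapamycin (0.08), while Inpp5k is at 1.25 and 0.81.

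The further class I genes did not move together, and class II and III genes rose or did not pass. Of 3 further class I genes, 2 were tested. They were Pik3r6, given above, and Pik3ip1, whose product inhibits the catalytic subunit. Pik3ip1 had 1.28, 1.17 and 1.44 CPM with Torin-2, 0.0644, 0.616 and 0.251 CPM with rapamycin, and 0.257, 0.146 and 0 CPM with vehicle. It was called higher with Torin-2 (adjusted p = 0.00122, edgeR quasi-likelihood, Benjamini-Hochberg), and the size of the change is poorly known at so few counts. Pik3r3 (p55γ) stood at no more than 0.728 CPM in any library and was not tested. Of 8 class II and III genes, 6 were tested, and 4 rose and none fell with each compound. Pik3c3, the class III enzyme VPS34 of autophagy and endosomes, averaged 42.3 ± 1.46 CPM with Torin-2, 29.6 ± 1.50 CPM with rapamycin and 23.1 ± 1.79 CPM with vehicle. It rose by 0.87 with Torin-2 and 0.36 with rapamycin on the log2 scale (adjusted p = 9.04e-07 and 0.00219, edgeR quasi-likelihood, Benjamini-Hochberg). Its autophagy partner Atg14 rose by 1.49 and 0.97, and its scaffold Pik3r4 was at 0.11 and 0.17 without passing, although the rapamycin value passed without vehicle replicate 3 (0.0262). Pik3c2a, the class II enzyme of endocytosis, rose by 0.57 with Torin-2 and 0.43 with rapamycin. Of 13 kinases and partners that make other phosphoinositides, 12 were tested, and 5 rose and 5 fell with Torin-2 (median log2 fold change -0.07), and 4 rose and 5 fell with rapamycin (-0.04). Vac14 and Fig4, partners of the kinase PIKfyve, fell by 0.72 and 0.69 with Torin-2 and by 0.34 and 0.46 with rapamycin, and Pip4k2a rose by 0.76 and 0.54. Active members of the myotubularin family remove the 3′ phosphate that class II and III enzymes add, and inactive members such as Sbf2 do not. Of 13 genes of the family, 12 were tested. With Torin-2 6 rose and 5 fell (median 0.16), and with rapamycin 3 rose and 5 fell (0.08), with Sbf2 at 0.84 and 0.52 and Mtmr4 at -0.73 and -0.46.

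The inputs of p110γ and of the p85-bound isoforms were described from separate lists. Of 23 genes for receptors, immune receptor signalling and adaptors that act through p85, 13 rose and 4 fell with Torin-2 (median log2 fold change 0.30), and 14 rose and 3 fell with rapamycin (0.37). That is 56.5% higher and 17.4% lower with Torin-2 and 60.9% higher and 13.0% lower with rapamycin, beside 32.5% and 32.9%, and 24.6% and 26.2%, of all genes tested. Irs2, the insulin receptor substrate that binds p85, averaged 43.0 ± 3.21 CPM with Torin-2, 36.2 ± 8.63 CPM with rapamycin and 18.2 ± 2.38 CPM with vehicle, and rose by 1.24 and 0.98 on the log2 scale. Gab2, a docking protein for p85, rose by 1.41 and 0.99, and Cblb, a ubiquitin ligase that can act on p85, by 2.37 and 0.97. Csf1r, the receptor for macrophage colony stimulating factor, rose by 0.30 with Torin-2 and 0.57 with rapamycin, and the kinase Syk by 0.27 and 0.30. The docking gene Gab3 and the adaptor Grb2 fell, by 1.08 and 0.68 with Torin-2 and by 1.11 and 0.44 with rapamycin.

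Of 19 genes for chemoattractant receptors, G proteins and Ras, the inputs of p110γ, 4 rose and 11 fell with Torin-2 (median -0.18), and 9 rose and 6 fell with rapamycin (0.09). The shares were 21.1% higher and 57.9% lower with Torin-2, where all genes had 32.5% and 32.9%, and 47.4% higher and 31.6% lower with rapamycin, where all genes had 24.6% and 26.2%. The complement receptor C5ar1 rose with both, by 0.64 with Torin-2 and 1.33 with rapamycin. Gng2, a G protein γ subunit, rose by 0.91 with Torin-2 and did not pass with rapamycin (0.09, adjusted p = 0.431, edgeR quasi-likelihood, Benjamini-Hochberg).

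**Figure D5:**
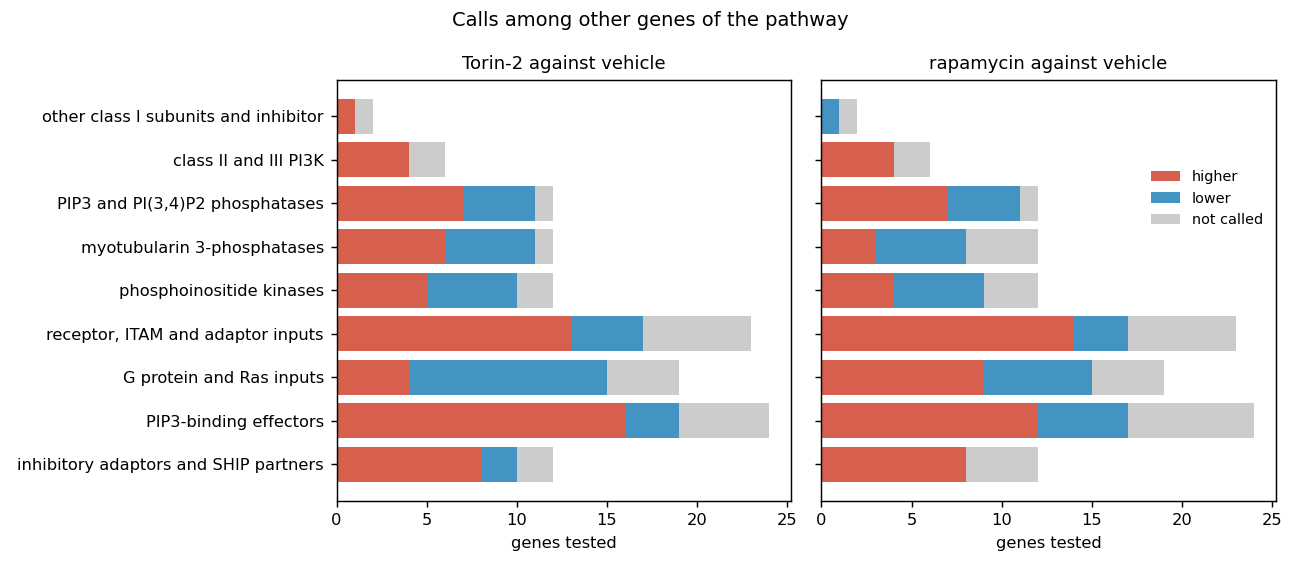
Number of tested genes called higher, called lower or not called in each of the 9 lists of other pathway genes, for both comparisons with vehicle. Among G protein and Ras inputs the Torin-2 bar holds 4 higher and 11 lower, and the rapamycin bar 9 higher and 6 lower. The list of inhibitory adaptors includes Inpp5d.

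Among 24 effectors that bind PIP3 or its products, 16 rose and 3 fell with Torin-2 (median 0.40), and 12 rose and 5 fell with rapamycin (0.20). These make 66.7% higher and 12.5% lower with Torin-2, and 50% higher and 20.8% lower with rapamycin. The kinase gene Akt1 fell by 0.21 with Torin-2 and 0.16 with rapamycin, and Akt2 was at -0.01 without passing and 0.13. The rapamycin call of Akt2 (adjusted p = 0.0443, edgeR quasi-likelihood, Benjamini-Hochberg) was lost under library totals alone (0.563), without a filter (0.187) and when any 1 library other than rapamycin replicate 2 was left out (0.0532 to 0.153). That of Akt1 was lost without a filter (0.0967) and with 2 groups only in the fit (0.0559). Pdpk1, the kinase that activates AKT, rose by 0.55 with Torin-2 and was at 0.14 with rapamycin without passing (adjusted p = 0.0642, edgeR quasi-likelihood, Benjamini-Hochberg). That value passed with the replicate block (0.0388), under RLE scaling (0.0479), with 2 groups only in the fit (0.0493) and without rapamycin replicate 2 (0.0331). Btk, a kinase with a PIP3-binding domain, rose by 0.49 with Torin-2 and was at -0.02 with rapamycin without passing.

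The list of inhibitory receptors and adaptors that work with SHIP1 held 12 genes including Inpp5d, of which 8 rose and 2 fell with Torin-2 (median 0.66), and 8 rose and none fell with rapamycin (0.35). Inpp5d and Dok2 were the 2 that fell. Fcgr2b, the inhibitory Fc receptor to which SHIP1 binds, stood at 273, 248 and 259.6 CPM with Torin-2, at 83.9, 49.4 and 73.7 CPM with rapamycin and at 33.7, 24.8 and 39.3 CPM with vehicle. It rose by 2.99 ± 0.19 with Torin-2 and 1.08 ± 0.18 with rapamycin (adjusted p = 6.12e-08 and 0.000471, edgeR quasi-likelihood, Benjamini-Hochberg), while Inpp5d fell or did not pass. Dok1, an adaptor that attenuates tyrosine kinase signals, rose by 1.47 and 0.59, whereas its relative Dok2 fell by 0.74 with Torin-2 and rose by 0.38 with rapamycin.

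Over all 9 lists, 122 of 127 genes were tested. With Torin-2 64 rose and 34 fell (median log2 fold change 0.24), and with rapamycin 61 rose and 29 fell (0.22), beside all-gene medians near 0. Called higher were 52.5% with Torin-2 and 50% with rapamycin, against 32.5% and 24.6% of all genes tested, and called lower 27.9% and 23.8%, against 32.9% and 26.2%. Between the compounds 40 were higher and 32 lower with Torin-2 (median 0.03), or 32.8% and 26.2%, against 24.2% and 24.1% of all genes tested. Csf1r, Synj2 and Inppl1 share exon bases with a tested gene of the other strand, so their values are uncertain to that extent. For Inppl1 this is 1204 bases shared with Gm10602, which had at most 3.03 CPM.

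Genes whose log2 CPM followed a member most closely over the 9 libraries were taken from 8695 genes with at least 5 CPM on average. For Pik3r5 these were Sik1 (Pearson's r = 0.998), Zfp236 (0.995) and Gatad2b (0.995), and for Pik3cg Epb41l1 (0.991), Tet3 (0.990) and Cttnbp2nl (0.989). Pik3cd was most like the phosphatase gene Synj2 (0.993), Zbtb7a (0.992) and Fmnl1 (0.989), and Pik3ca like Elf1 (0.991). Inpp5d was most like Xylt2 (0.995), Adam8 (0.990) and Sema4a (0.989). Adam8 averaged 1452 CPM with Torin-2, 2363 CPM with rapamycin and 2245 CPM with vehicle, with Torin-2 lowest as for Inpp5d. For Pik3cb the nearest was Rpl4 (0.983), for Pik3r1 Bicd2 (0.984), for Pik3r2 Hipk2 (0.973) and for Pik3ap1 Map3k11 (0.974). These are descriptions without a test, since the 9 points fall into 3 treatment groups and share their libraries.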

How the data were processed

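mRNA-seq libraries of 9 macrophage cultures, 3 per group, were read as raw counts per gene, as the authors deposited them in 1 table. Per the submitters' processing notes, bcl2fastq, FastQC and STAR 2.5.2a were used with mm10 and GRCm38.p6. How reads were counted, with what annotation and whether by strand, the sources used here do not say. The labels' protocols state that marrow of different animals was kept separate as biological replicates.

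Tests were run with edgeR 4.0.16 (limma 3.58.1) in R 4.3.3. filterByExpr by group left 12511 of 53342 genes, which hold over 99.9% of each library's counts, and TMM factors lay between 0.955 and 1.05. All 9 libraries entered 1 quasi-likelihood fit with 3 groups. Its 3 contrasts, 2-sided, were adjusted by Benjamini-Hochberg over every gene in the fit and called at 0.05. No adjustment or set test was made over a list alone. The common biological coefficient of variation was 9.96%. CPM are scaled by library total and TMM factor, SD is over 3 libraries, and changes are relative to other genes, since no spike-in was used here. No 2 replicates agreed within counting noise (chi-square per gene 4.79 to 56.5). Positions and merged exon lengths come from GENCODE M21 (GRCm38), which holds 53237 of the 53342 identifiers and not 105. Promoter windows come from RefSeq, where 9 of 9 genes matched. The script was tested on simulated counts.

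The genes and lists were chosen with earlier results of these data known. Named genes are the 9, the 3 largest rises and falls of each list with at least 1 CPM on average, of which some are printed, and 15 fixed by name, and some genes that this takes are not reported here. Same-numbered libraries of different groups deviated together (9 pairs, r = 0.168 to 0.5, against -0.358 to 0.162 for 18 other pairs). The 2 ranges nearly meet, and the labels state no pairing. A pairing by replicate number is thus inferred, and the main fit does not use it. Alternatives were library totals alone, RLE scaling, no filter, 2 groups only, a replicate block, DESeq2 1.42.0, leaving out each library, and leaving out replicate 3 of every group.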

Additional observations from a re-analysis of the deposited data

How the results depend on the processing

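Over the 9 genes and 3 comparisons, 27 results were recomputed under 16 alternatives. Of the 432 values, 399 kept direction and side of the threshold, 21 lost the call, 5 gained it and 7 changed sign without a call. For 19 of the 27 results all values kept both. With the replicate block 6 of the 9 genes were called with Torin-2, 8 with rapamycin and 6 between the compounds, beside 5, 8 and 6 without it, and the block changed no call of the named genes other than those of Pik3r2 with Torin-2 and Pdpk1 with rapamycin. In the same order, leaving out libraries gave 5 to 6, 7 to 8 and 4 to 6 called genes, and leaving out replicate 3 of every group, where fibroblast markers were lowest, 5, 8 and 6. Under library totals alone 3 genes were called between the compounds, and the median of all genes shifted there by 0.07. Among the 9 genes the calls that were lost are those of Pik3r2 with rapamycin and of Pik3cd, Pik3ap1 and Pik3r1 between the compounds, and the one gained is that of Pik3r2 with Torin-2, with the values given above. Signs that changed belonged to log2 fold changes near 0. Inpp5d with rapamycin was -0.00945 under library totals alone. Between the compounds Pik3r2 was 0.052 under library totals alone and ran from -0.11 to 0.044 when libraries were left out, positive without rapamycin replicate 1 or Torin-2 replicate 2 (0.028). Pik3cg between the compounds ran from -0.034 to 0.11 when libraries were left out, negative without rapamycin replicate 2 or 3 or replicate 3 of every group. Akt2 with Torin-2 was 0.00358 without a filter and ran from -0.029 to 0.019 when libraries were left out, and Btk with rapamycin ran from -0.094 to 0.018, positive without vehicle replicate 1. The causes were not tested. Genes with few counts, such as Pik3ip1, are limited by depth.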
